A study of Mus musculus with 4 samples.

Results

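The genes described here make cholesterol, control that synthesis, or move cholesterol into, within and out of cells. They were taken as a list of 28 symbols: the enzymes of the mevalonate and sterol pathway, the regulators of the SREBP transcription factors, and sterol transporters with 1 regulator of uptake. Of the 28, 25 had a row among the 23930 amplicons of the deposited table, and all 25 passed the filter on low values and were tested among 11638 genes. Idi1, Fdps and Acat2 were not analysed here. The study profiled primary progenitor cells from subcutaneous tissue of C57BL/6 mice. All cells had a floxed Gnas gene, the source of the G protein subunit through which receptors raise cyclic AMP. Control cells received an adenovirus with green fluorescent protein (Ad-GFP, genotype wild type), mutant cells an adenovirus with Cre recombinase (Ad-Cre, genotype Gnas-/-), and both were then kept in osteogenic medium for 7 days. There were 2 libraries in each group, called control 1, control 2, mutant 1 and mutant 2. The labels give no ages, do not name the promoter that drives Cre, and do not tell whether both libraries of 1 group are different mice or repeats of 1 culture, so p-values reflect the spread among these libraries, which for the mutants may be technical (the controls differ in Xist, given below, and so were not repeats of 1 culture). The virus and the loss of Gnas cannot be told apart.

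Cholesterol is built from acetyl-CoA. The mevalonate steps lead to farnesyl diphosphate and squalene, and the later steps close the sterol rings and trim them to cholesterol. When membrane sterol falls, SCAP carries SREBP-2 from the endoplasmic reticulum to the Golgi, where it is cut and freed to switch on nearly every gene of the pathway. INSIG proteins hold SCAP back when sterol is plentiful. Oxysterols act in the opposite direction through the LXR receptors, whose targets include the efflux pumps ABCA1 and ABCG1 and the ubiquitin ligase encoded by Mylip (also called IDOL), which removes lipoprotein receptors. Cells of connective tissue can both make cholesterol and take it up.

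Promoter windows of 300 bases were available from RefSeq (GRCm38.p6) for 21 of the 25 members, and 4 are shown because 3 hold the sterol response element core and the fourth belongs to Mylip, the member with the largest positive fold change. Each runs 5′ to 3′ along the gene's strand, from 250 bases before its start to 50 after. Capitals mark the core TCACNCCA, which SREBP proteins bind, and CCAAT or its reverse complement, the site of the partner factor NF-Y.
Hmgcs1, chr13:119690101-119690400, plus strand: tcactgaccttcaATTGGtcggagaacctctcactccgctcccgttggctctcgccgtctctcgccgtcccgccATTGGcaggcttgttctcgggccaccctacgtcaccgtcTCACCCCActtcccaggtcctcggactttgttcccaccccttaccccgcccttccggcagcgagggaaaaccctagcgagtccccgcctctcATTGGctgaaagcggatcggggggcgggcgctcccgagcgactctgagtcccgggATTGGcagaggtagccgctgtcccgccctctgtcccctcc
Msmo1, chr8:64733529-64733828, minus strand: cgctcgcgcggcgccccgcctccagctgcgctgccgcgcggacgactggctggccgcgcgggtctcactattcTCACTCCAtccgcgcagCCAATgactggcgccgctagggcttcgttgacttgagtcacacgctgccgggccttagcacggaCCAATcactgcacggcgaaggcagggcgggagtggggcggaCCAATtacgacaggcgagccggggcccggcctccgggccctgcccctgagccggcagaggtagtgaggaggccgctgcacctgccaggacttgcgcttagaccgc
Srebf2, chr15:82147019-82147318, plus strand: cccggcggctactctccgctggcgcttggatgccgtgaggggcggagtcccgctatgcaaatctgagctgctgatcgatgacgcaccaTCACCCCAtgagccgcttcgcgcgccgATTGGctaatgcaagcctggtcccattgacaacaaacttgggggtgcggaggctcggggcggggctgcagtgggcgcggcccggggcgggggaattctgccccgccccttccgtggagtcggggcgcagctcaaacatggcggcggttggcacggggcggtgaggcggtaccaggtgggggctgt
Mylip, chr13:45389492-45389791, plus strand: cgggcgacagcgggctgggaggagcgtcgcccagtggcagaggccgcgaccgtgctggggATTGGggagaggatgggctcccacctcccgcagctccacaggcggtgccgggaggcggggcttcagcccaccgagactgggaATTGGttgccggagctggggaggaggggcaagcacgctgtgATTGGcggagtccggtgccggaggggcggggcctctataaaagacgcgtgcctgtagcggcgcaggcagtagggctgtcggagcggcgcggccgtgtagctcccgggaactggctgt
The core began 137 bases before the start of Hmgcs1, 177 before that of Msmo1 and 162 before that of Srebf2. These were the 3 of 21 members with a match on either strand, against 4.36% of all 32851 windows. CCAAT was far more widespread. It stood in 19 of the 21 members, including all 13 enzymes with a window, against 37.4% of all windows. Several members have more than 1 window, so the share of genes with CCAAT in any window is the closer comparison, and it was 42.7% of the 8854 tested genes that have one. The Sp1 site GGGCGG was found in 20 of the 21 members and in 69.5% of those tested genes, and the consensus LXR direct repeat in 0 of the 21 members and 0.0152% of all windows. Both strands were searched and matches of different motifs may overlap. A match describes these letters only. Sqle, Fdft1, Abcg1 and Npc1 had no window.

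Library depth, recovered from the deposited values, was 13483518 to 18455811 reads, with control 2 the shallowest. The 2 controls differed more than the 2 mutants did. Over the genes tested 507 differed by more than 4-fold between the controls and 11 between the mutants. Markers of fibroblastic stroma were present in every library (6 of 6 measured markers tested). They summed to 11367 and 15277 RPM in the controls and 28955 and 32355 RPM in mutants 1 and 2. All 6 were higher in both mutants than in both controls, as were 30.6% of all genes tested. Dpt of this list rose (14.2-fold, limma adjusted p = 0.0389), as did 1.73% of all genes tested. Summed, the 3 smooth muscle and pericyte markers gave 52.3, 83.8, 156 and 217 RPM for control 1, control 2, mutant 1 and mutant 2. Cspg4 of these rose (7.25-fold, limma adjusted p = 0.0252). Myh11 overlapped between the groups (1.04-fold, adjusted p = 0.92), and Rgs5 stayed below 1 RPM throughout. Like the stromal markers and Cspg4, Mylip (below) was higher in both mutants than in both controls. Abcg1 and Gramd1b (below) were lower in both mutants, as were 21.1% of all genes tested. Of all these genes only Dpt, Cspg4 and Gramd1b passed in limma. The part of these markers in the levels of Mylip, Abcg1 and Gramd1b was not tested. The keratinocyte and skeletal muscle markers summed to at most 0.538 RPM, and 6 of 8 adipocyte markers, among them Adipoq and Plin1, stayed below 1 RPM in every library. Of the 2 adipocyte markers tested, Pparg was higher in both mutants (8.36 and 23.6 RPM) than in either control (4.23 and 6.75 RPM). Its 2.92-fold ratio did not pass (limma adjusted p = 0.321). Fabp4 overlapped between the groups (adjusted p = 0.858), with its highest value, 22.9 RPM, in control 2. The 12 macrophage markers, led by Lyz2, summed to 50.5 RPM in control 1 and 970 in control 2, against 30.2 and 16.9 in mutants 1 and 2, and 10 of the 12 were highest in control 2. The 5 endothelial markers were also highest in control 2 as a sum, at 84.8 RPM against 9.97 to 36.6 RPM elsewhere. By gene, 3 of the 5 were highest in that library. Tek and Kdr were instead highest in mutant 2 (12.2 and 2.56 RPM), and Kdr was lowest in control 2 (0.89 RPM). Xist, made from the inactive X chromosome of females, stood at 165 RPM in the first control, 0 in the second, and 395 and 419 RPM after Ad-Cre. Ddx3y, a gene of the Y chromosome, stood at 61.4 and 124 RPM in controls 1 and 2 and at 26.9 and 12.5 RPM in mutants 1 and 2. Control 1 and both mutants thus held both transcripts, and Xist alone does not give the sex of these cultures. Donor differences cannot be told apart from the groups. Gnas itself was not analysed here, so the genotype was not checked by its own gene.

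No member passed the test when the 2 mutants were compared with the 2 controls (0 of 25 higher, 0 of 25 lower), where 1.73% of all tested genes were higher and 0.576% lower. The test was limma on log2(RPM + 1), with Benjamini-Hochberg adjustment over all 11638 genes and a threshold of 0.05. At an unadjusted p below 0.05 there was 1 member higher (Mylip) and 2 lower (Abcg1 and Npc2), where 11.9% and 6.01% of all genes tested were. edgeR on whole reads called 0 members (0.567% of all genes tested higher, 0.232% lower). DESeq2 called 1 member higher, Mylip, and 1 lower, Abcg1 (5.14% and 4.24% of all genes tested). For the enzymes the gap lay inside the control group. Every one of the 15 measured enzymes of synthesis was lowest in control 2, while both mutants lay near control 1 or between the controls. The median log2 fold change over the 25 members was 0.36, beside 0.08 over all genes tested, and -0.0042 in edgeR and -0.015 in DESeq2. By limma it was -0.37 against control 1 alone and 1.32 against control 2 alone, beside 0.02 and 0.14 over all genes tested. The choice of control thus turned the direction of this median.

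**Figure D1:**
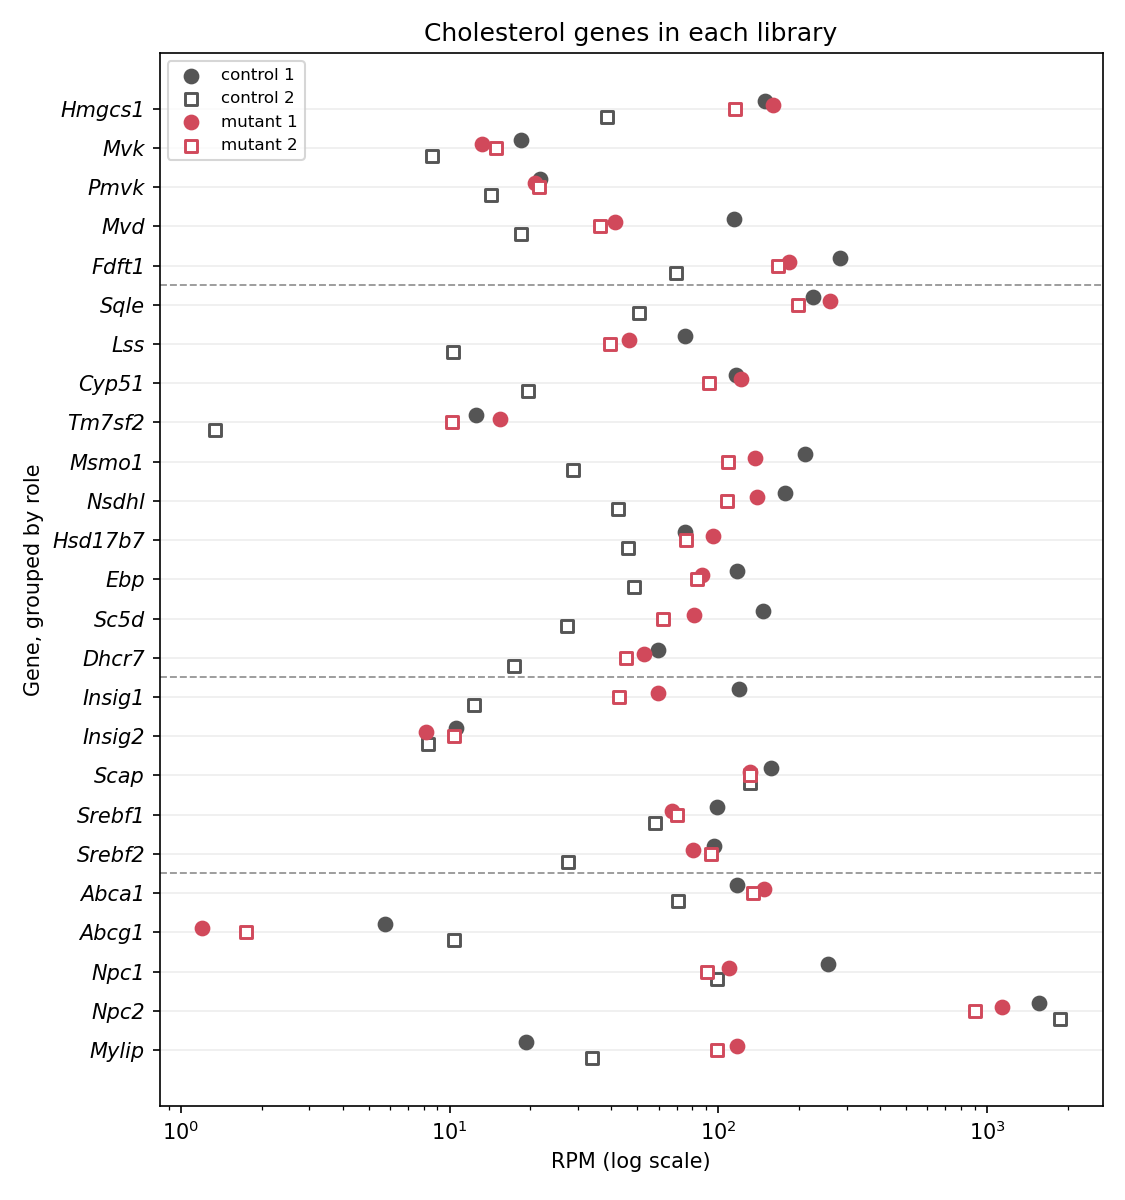
RPM of the 25 measured members in each of the 4 libraries (log axis; grey, controls; red, mutants; filled circles, replicate 1; open squares, replicate 2), in 4 role groups parted by dashed lines. The open grey squares of control 2 are the leftmost points for all 15 enzymes in the upper 2 groups, and Abcg1, Npc2 and Mylip in the lowest group are among the members whose groups do not overlap.

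The early steps make mevalonate and join its products into squalene. Hmgcs1, which condenses acetyl-CoA units into the precursor of mevalonate, measured 149 RPM in control 1 and 38.5 in control 2, against 160 and 115 in mutants 1 and 2. Control 2 was low, and the other 3 libraries lay within 1.5-fold of each other. The log2 fold change of the mutants against both controls was 0.83 (SE 0.64, limma adjusted p = 0.558). Against control 2 alone Hmgcs1 rose by 1.79 on the log2 scale (adjusted p = 0.00393), and against control 1 alone the value was -0.14 (adjusted p = 0.753). Here and below, a comparison with 1 control assumes that the lone library varies as the 2 mutants do. Both such comparisons share those mutants. The controls in fact differed more, with 507 genes beyond 4-fold against 11 between the mutants. The p-values and calls of comparisons with 1 control therefore leave out the spread between the controls.

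Mvd, the decarboxylase that makes isopentenyl diphosphate, is an enzyme whose mutant levels lay between the controls. It measured 115 RPM in control 1 and 18.5 in control 2, against 41.4 and 36.2 in mutants 1 and 2. Mvd fell by 1.54 on the log2 scale against control 1 alone (limma adjusted p = 0.00408) and rose by 1.03 against control 2 alone (adjusted p = 0.0257). Fdft1, squalene synthase, was at 284 and 69.5 RPM in controls 1 and 2 and at 184 and 166 RPM in mutants 1 and 2 (values of 4 libraries are given in this order below), and likewise fell against control 1 (-0.70, adjusted p = 0.0484) and rose against control 2 (1.32, adjusted p = 0.00478). Mvk and Pmvk, the kinases that phosphorylate mevalonate and its product, differed least. Mvk stood at 18.4, 8.60, 13.2 and 14.9 RPM, and Pmvk at 21.6, 14.3, 20.8 and 21.5 RPM. Neither passed against either control alone (adjusted p of 0.161 to 0.952).

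The median ratio of control 1 to control 2 was 4.90 over the 10 enzymes after squalene and 3.87 over the 5 before it. Sqle, the oxygenase that starts this branch and one of its rate-limiting enzymes, measured 225 RPM in control 1 and 50.6 in control 2, against 260 and 197 in mutants 1 and 2. The mutants bracketed control 1, with a log2 difference of 0.01, and stood above control 2 by 2.14. Against both controls the log2 fold change of Sqle was 1.07, with a 95% interval of -0.70 to 2.85 (adjusted p = 0.483). Lss, which closes the sterol rings to lanosterol, stood at 75.0, 10.3, 46.4 and 39.4 RPM, again with both mutants between the controls. Cyp51, which removes a methyl group from lanosterol, stood at 116, 19.7, 122 and 92.3 RPM. Tm7sf2, a sterol reductase acting next, had the widest ratio between the controls of any enzyme on the list, 9.42, with 12.6, 1.34, 15.3 and 10.2 RPM. That ratio rests on 18 reads in control 2.

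Next come the enzymes of the demethylation complex. Control 2 was lowest for all 3, while the place of the mutants relative to control 1 differed between them. Msmo1, its methyl sterol oxidase, measured 211 RPM in control 1 and 28.9 in control 2, against 137 and 109 in mutants 1 and 2. Nsdhl, its dehydrogenase and a gene of the X chromosome, stood at 177, 42.3, 140 and 108 RPM. Hsd17b7, its ketone reductase, was the 1 enzyme whose groups did not overlap, with 74.9 and 46.1 RPM in the control libraries and 95.4 and 75.6 RPM after Ad-Cre. That separation was narrow, and the log2 fold change of 0.52 had an adjusted p of 0.441 (limma). It was 0.18 against control 1 alone (adjusted p = 0.636) and 0.87 against control 2 alone (adjusted p = 0.0375). Over all genes tested 30.6% had both mutants above both controls.

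Among the last steps, Ebp, the isomerase of the sterol ring and also X-linked, stood at 118, 48.6, 86.7 and 83.0 RPM. Sc5d, the desaturase, stood at 146, 27.3, 81.4 and 62.1 RPM. Dhcr7, which completes cholesterol in one arm of the pathway, stood at 59.6, 17.4, 52.7 and 45.3 RPM. Sc5d fell against control 1 alone (-1.03, limma adjusted p = 0.0245) and rose against control 2 alone (1.35, adjusted p = 0.0108). For Ebp and Dhcr7 the difference from control 1 did not pass (adjusted p = 0.150 and 0.439).

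By count, the gap between the controls ran through all 15 enzymes. Control 2 was the lowest of the 4 libraries for 15 of 15, against 38.5% of all genes tested, and this count was also 15 under median-of-ratios scaling and quantile normalization, which were tried after seeing the data. Control 1 exceeded control 2 by more than 2-fold for 13 of 15, against 14.1% of all genes tested, the others being Pmvk (1.51-fold) and Hsd17b7 (1.62-fold). The median ratio of control 1 to control 2 was 4.19. Both mutants lay between the controls for 10 of 15 enzymes, against 12.3% of all genes tested. In the test against control 2 alone 13 of 15 rose (13.8% of all genes tested), and against control 1 alone 3 of 15 fell (6.82% of all genes tested) and 0 rose (9.15%). The enzymes share the same 4 libraries, so these counts are not independent of each other, and the macrophage and endothelial sums given above were highest in the library where the enzymes were lowest. Their part in the result was not tested.

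The 2 mutant libraries lay close together by comparison. The widest ratio between them among the enzymes was 1.51, for Tm7sf2. Within that narrow range mutant 1 exceeded mutant 2 for all 10 enzymes after squalene and for 3 of 5 before it, against 50.6% of all genes tested. The geometric mean over the 15 enzymes was 87.6 RPM in control 1 and 21.7 in control 2, against 70.4 and 58.7 in mutants 1 and 2. These are bulk cultures, in which fewer cells of a type and less RNA per cell cannot be told apart.

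**Figure D2:**
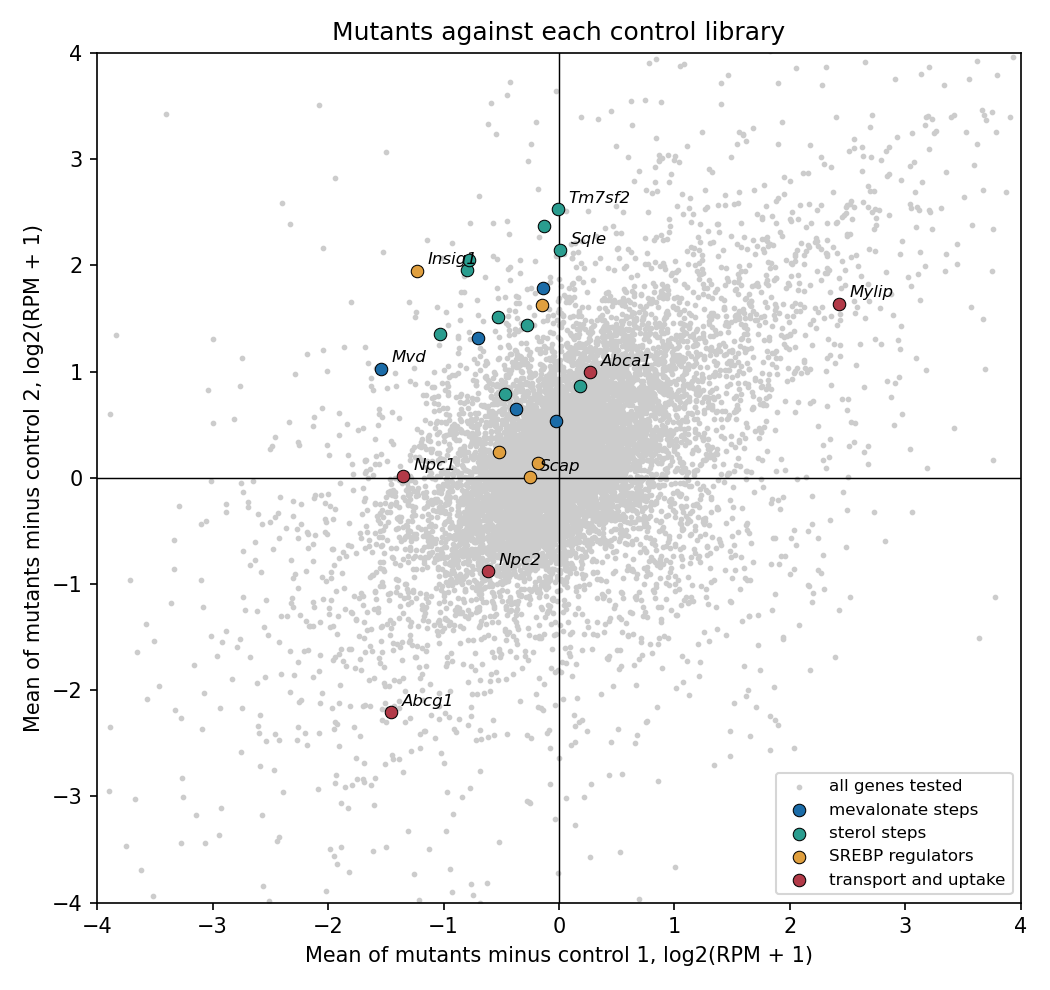
Mean of the 2 mutants minus control 1 (x axis) and minus control 2 (y axis), both on the log2(RPM + 1) scale, for the members by role and for all genes tested (small grey points; 132 genes lie outside the axes). Most enzymes lie in the upper left, above control 2 and at or below control 1, whereas Mylip lies above both controls and Abcg1 and Npc2 below both.

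Of the 5 regulators, 2 showed the same gap between the controls as the enzymes did. Insig1, which retains SCAP and is itself an SREBP target, measured 119 RPM in control 1 and 12.3 in control 2, against 59.7 and 42.6 in mutants 1 and 2. Its ratio between the controls, 9.70, was the largest of all 25 members. Insig1 fell by 1.23 on the log2 scale against control 1 alone (limma adjusted p = 0.0185) and rose by 1.95 against control 2 alone (adjusted p = 0.00434). Srebf2, the transcription factor gene that drives the pathway, stood at 96.2, 27.5, 80.6 and 93.8 RPM, so that control 2 alone was low. Srebf2 rose against control 2 (1.62, adjusted p = 0.0033) and stood at -0.14 against control 1 (adjusted p = 0.681).

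The remaining regulators differed less between the controls. Over all 5 regulators control 2 was lowest for 4 and control 1 highest for 5, against 38.5% and 28.4% of all genes tested. Scap, the sterol sensor that escorts SREBP, measured 157 RPM in control 1 and 131 in control 2, against 131 and 131 in mutants 1 and 2, with a 95% interval for the log2 fold change of -0.65 to 0.40. Insig2, the second INSIG gene, stood at 10.6, 8.31, 8.19 and 10.4 RPM, with an interval of -0.84 to 0.80. Srebf1, whose product mainly serves fatty acid synthesis, stood at 98.9, 58.0, 67.2 and 70.2 RPM, with a ratio of 1.71 between the controls. None of these passed against either control alone (limma adjusted p of 0.123 to 0.991).

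Among the 5 transport genes 2 had both mutants above both controls and 2 had both below, as 30.6% and 21.1% of all genes tested did. Mylip, the ubiquitin ligase gene that lowers lipoprotein uptake, measured 19.2 RPM in control 1 and 34.0 in control 2, against 118 and 98.9 in mutants 1 and 2. Both mutants were well above both controls, with a control mean of 26.6 ± 10.4 RPM and a mutant mean of 108 ± 13.4 RPM (SD, n = 2 libraries each) and a 4.07-fold ratio. The log2 fold change of Mylip was 2.03 (SE 0.33, 95% interval 1.20 to 2.87), and its limma adjusted p of 0.0545 fell just short of the threshold. Mylip passed in limma with a pseudocount of 5 (adjusted p = 0.0495), a filter of 5 RPM (0.0492) or the replicate block (0.036). It also passed in DESeq2 (adjusted p = 0.000253). It did not pass in edgeR (adjusted p = 0.0983). Nor did it pass in limma with a pseudocount of 0.5, without the filter, without the trend or under any other scaling tried. On the log2 scale the mutants stood 2.43 above control 1 alone and 1.64 above control 2 alone for Mylip. Mylip lies on the plus strand of chromosome 13 (GRCm38), with the gene spanning 45389742 to 45412022.

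Abcg1, which exports cholesterol to lipoprotein particles, went the other way. It measured 5.74 RPM in control 1 and 10.4 in control 2, against 1.20 and 1.75 in mutants 1 and 2, which is 106, 140, 21 and 26 reads. Both mutants were below both controls, with a control mean 5.46 times the mutant mean. The log2 fold change of -1.83 (SE 0.41) had a limma adjusted p of 0.109, and DESeq2 called it (adjusted p = 0.00456). edgeR (adjusted p = 0.126) and limma with the replicate block (0.0779) did not. Nor did any other alternative that kept all libraries. Abcg1 fell against control 1 alone (-1.45, adjusted p = 0.0496) and against control 2 alone (-2.21, adjusted p = 0.00891), where 6.89% of all genes tested fell. Macrophages express Abcg1 strongly, and of the 12 macrophage markers 4 were at 0 in mutant 1 and 6 in mutant 2, against 2 in control 1 and 1 in control 2. Csf1r and C1qa were instead higher in both mutants than in control 1. Csf1r had 1.1 RPM in control 1 and 2.0 and 1.7 RPM in mutants 1 and 2. C1qa had 0 reads in control 1 and 3 and 2 reads in mutants 1 and 2. The 12 markers summed to 50.5 RPM in control 1 and 970 in control 2, and Abcg1 in control 2 was 1.81 times its control 1 level. The part of these markers in the lower Abcg1 level of the mutants was not tested.

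Abca1, the pump that loads cholesterol and phospholipid onto apolipoprotein A-I, did not share the direction of Abcg1. It measured 117 RPM in control 1 and 70.5 in control 2, against 148 and 135 in mutants 1 and 2, with the groups apart. Its log2 fold change was 0.63 (95% interval -0.12 to 1.39, limma adjusted p = 0.349). Abca1 rose against control 2 alone (0.99, adjusted p = 0.0143) but did not pass against control 1 alone (0.27, adjusted p = 0.393). Whether Abca1 and Abcg1 differ in response was not tested.

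Npc1 and Npc2 together release cholesterol from lysosomes. Npc2, the soluble carrier, measured 1556 RPM in control 1 and 1863 in control 2, against 1136 and 905 in mutants 1 and 2, so the groups did not overlap. Its log2 fold change was -0.75 (SE 0.28, limma adjusted p = 0.263), and it fell against control 2 alone (-0.88, adjusted p = 0.0423) but did not pass against control 1 alone (-0.62, adjusted p = 0.129). Npc1, the membrane partner, stood at 256, 98.7, 109 and 90.7 RPM, with control 1 alone high. Npc1 fell against control 1 alone (-1.35, adjusted p = 0.00576) and differed from control 2 by 0.01 (adjusted p = 0.971). Of all 25 members 3 had both mutants above both controls (Hsd17b7, Abca1 and Mylip) and 2 had both below (Abcg1 and Npc2), where 30.6% and 21.1% of all genes tested did.

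**Figure D3:**
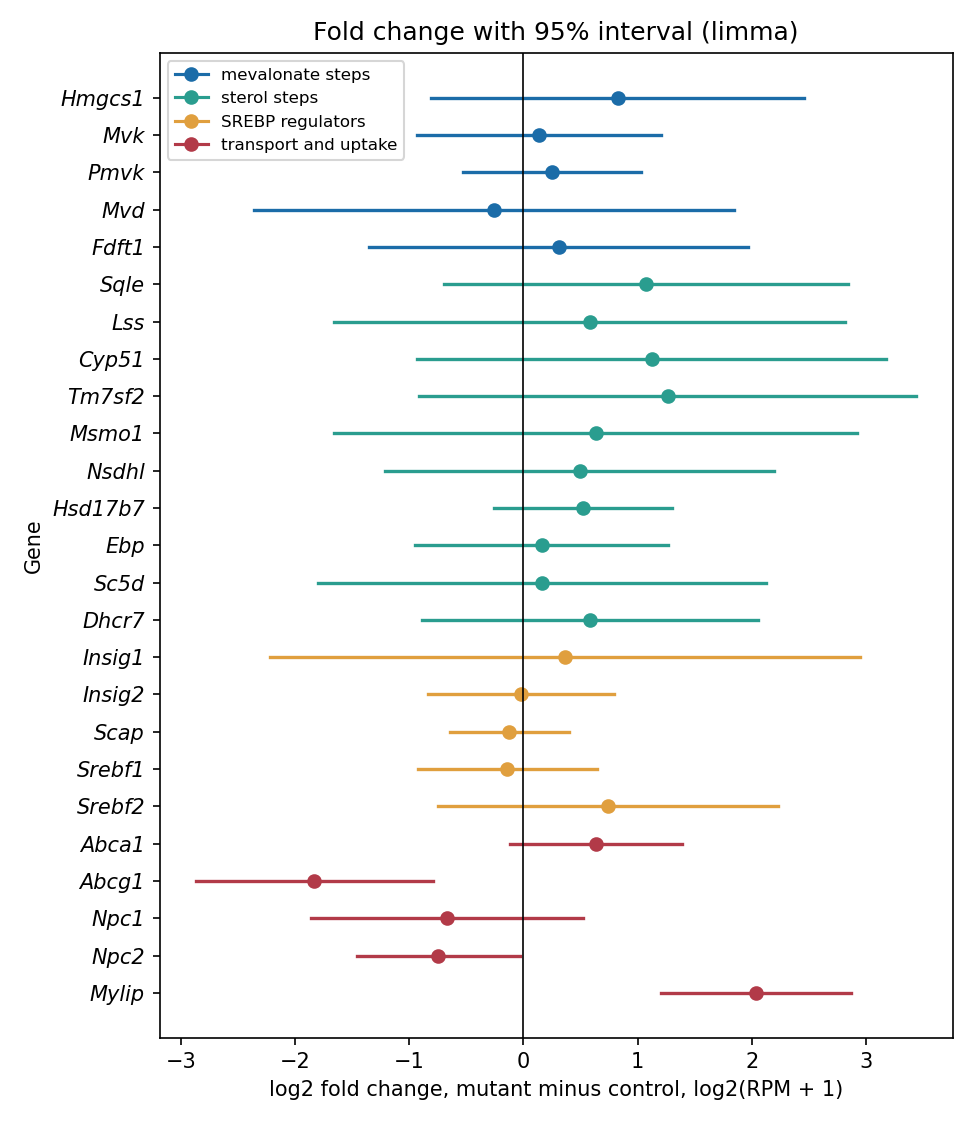
The log2 fold change of mutant over control on the log2(RPM + 1) scale for each of the 25 members (points) with its 95% interval from limma (lines), coloured by role. The intervals of Abcg1, Npc2 and Mylip exclude 0 before adjustment for multiple tests, and those of the enzymes are wide and include 0.

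Because the controls lay so far apart, the scale of averaging also mattered. Sc5d had a log2 fold change of 0.16 and a ratio of mean RPM of 0.827, Insig1 had 0.36 and 0.777, and Fdft1 had 0.31 and 0.990. The mean of log values and the mean of RPM thus gave opposite directions for these 3. No direction exceeded the spread between libraries. Some members also overlap another gene when whole gene spans are compared. The positions of the amplicons were not at hand, so whether any amplicon lies in shared sequence was not tested. Among protein-coding genes, Fdft1 overlaps Ctsb on the other strand, Cyp51 overlaps Akap9, Srebf1 overlaps Rai1, Npc1 overlaps Rmc1 and Mvd overlaps Gm20388. Tm7sf2 overlaps Vps51 on the same strand.

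Other genes of sterol and fatty acid metabolism were read from lists next to the members. Fatty acid synthesis and desaturation genes, many of them SREBP targets, shared the gap between the controls. Of these, 12 of 14 were more than 2-fold higher in control 1 than in control 2, against 14.1% of all genes tested, with a median ratio of 2.77. None of the 14 passed in the main comparison (median log2 fold change 0.01), and the smallest unadjusted p belonged to Lpin1, a phosphatidate phosphatase (126, 46.7, 198 and 177 RPM, adjusted p = 0.265), and Acss2, an acetyl-CoA synthetase (6.99, 6.01, 10.8 and 11.2 RPM, adjusted p = 0.324). Against control 1 alone 6 of 14 fell (6.82% of all genes tested did) and against control 2 alone 5 of 14 rose (13.8% of all genes tested did). Elovl5, a fatty acid elongase singled out for its values, measured 194 RPM in control 1 and 0.519 RPM (7 reads) in control 2, against 112 and 121 RPM in the mutants, a gap far beyond that of the other 13.

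Sterol esterification, storage and carriage genes held the 1 call among the lists. It was 1 of 18 tested genes lower, where 0.576% of all genes tested were. Gramd1b, whose product (Aster-B) carries cholesterol from the plasma membrane to the endoplasmic reticulum, measured 84.6 RPM in control 1 and 75.0 in control 2, against 11.9 and 11.5 in mutants 1 and 2. The controls were close together and both mutants far below them. Gramd1b fell by 2.67 on the log2 scale (SE 0.23, limma adjusted p = 0.0196), from a mean of 79.8 ± 6.83 to 11.7 ± 0.24 RPM (SD, n = 2 each). It also passed in edgeR (adjusted p = 0.0311). For Gramd1b the log2 difference of the mutants was -2.755 from control 1 alone and -2.58 from control 2 alone. Without mutant 1 or without mutant 2 its adjusted p was 0.475 or 0.532, where 0 genes passed. It lies on the minus strand of chromosome 9 (GRCm38), with the gene spanning 40293233 to 40531383.

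The other 17 tested genes of that list did not pass, and Soat2 did not reach the filter. Soat1, which makes cholesteryl esters for storage and is named because of its values, had 139 and 176 RPM in the control libraries, with 68.2 and 71.5 RPM after Ad-Cre (log2 fold change -1.15, limma adjusted p = 0.0761). Vldlr, a lipoprotein receptor and a target of the Mylip product, named on the same ground, had 11.0 and 10.9 RPM in the control libraries and 3.84 and 2.49 RPM after Ad-Cre (-1.54, limma adjusted p = 0.107). The receptor genes Lrp8 and Lrp1 of the same list overlapped between the groups (limma adjusted p = 0.457 and 0.966). Receptor protein was not measured. At an unadjusted p below 0.05, 4 of the 18 tested genes of this list were lower and 1 higher, where 6.01% and 11.9% of all genes tested were.

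The lists for SREBP processing with sterol-regulated degradation and for isoprenoid branches showed no gap of this size between the controls. The median ratio of control 1 to control 2 was 1.21 over 9 processing genes and 1.20 over 13 isoprenoid genes. In either list 0 genes were more than 2-fold higher in control 1, against 14.1% of all genes tested. In lists this short, 0 is not far from that share. No gene passed in either list in the main comparison. Of the processing genes March6, a ubiquitin ligase of the endoplasmic reticulum, stood at 73.9, 62.4, 110 and 68.8 RPM (limma adjusted p = 0.582). Among the isoprenoid genes the smallest p belonged to Rabggtb, a subunit of the enzyme that attaches lipid to Rab proteins (36.8, 70.6, 32.6 and 24.6 RPM, limma adjusted p = 0.338), and Fnta, a subunit shared by the protein farnesyl and geranylgeranyl transferases (25.7, 43.7, 48.3 and 56.7 RPM, 0.385).

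**Figure D4:**
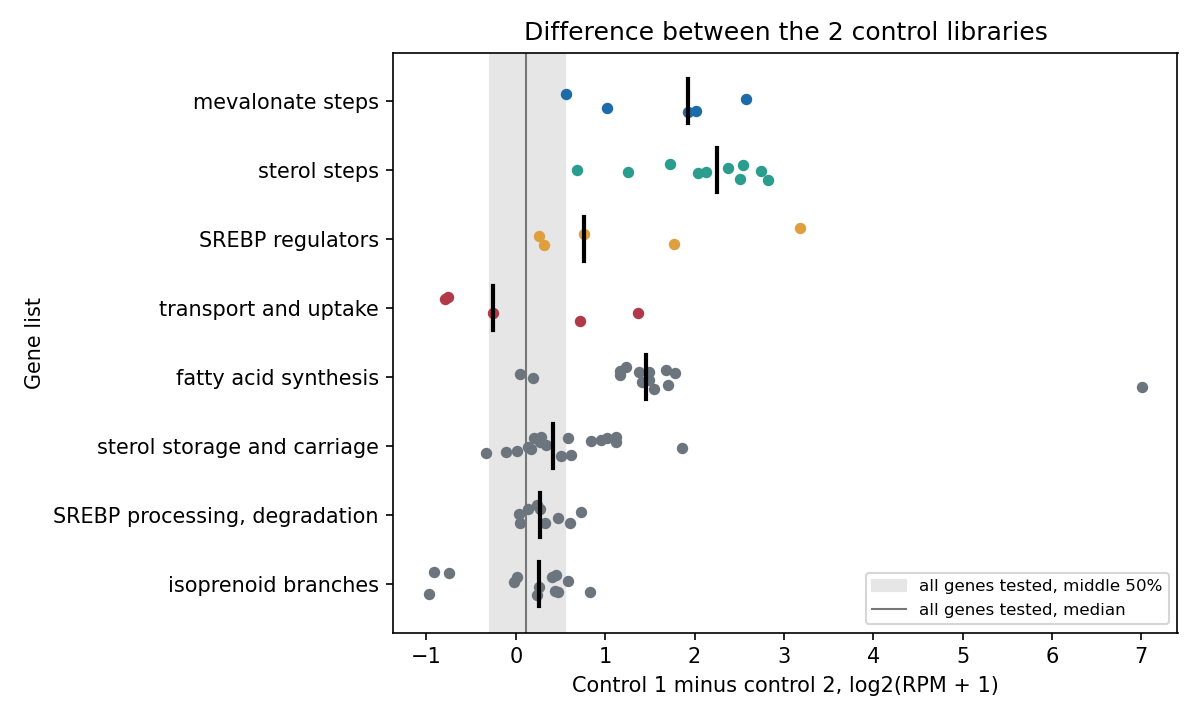
Control 1 minus control 2 on the log2(RPM + 1) scale for each tested gene of the member groups (coloured) and the other lists (grey), with the median of each list as a black bar. The band holds the middle 50% of all genes tested, from -0.29 to 0.55 (median 0.12), and the medians of the enzyme, SREBP regulator and fatty acid lists lie to its right.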

How the data were processed

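Messenger RNA was measured in 4 libraries with an Ion AmpliSeq mouse transcriptome panel, per the labels' protocols. The panel reads each gene through 1 short amplicon. The authors deposited RPM, in which each library's reads are scaled to a total of 1000000. The aligner, counter and build are not stated in the labels or the table used here. Symbols were taken from the amplicon names, since 27 gene names had become dates. Each value was a whole multiple of 1 read within 0.01 read (100% of non-zero values), which gave the depth. A value of 0 allows up to 3 reads, or 0.163 to 0.222 RPM, for counting error only.

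The 11638 genes that reached 1 RPM in 2 or more libraries were tested with limma 3.58.1 (trend) in R 4.3.3 on log2(RPM + 1), two-sided, after a test on simulated data. That scale understates changes of low genes. edgeR 4.0.16 and DESeq2 1.42.0 on the whole reads, other scalings, filters and pseudocounts, a replicate block and leaving out each library were alternatives. All members were described. From each other list the genes past the threshold (up to 6) or else the 2 with the smallest p were chosen, and 1 gene so chosen is not reported here. The members and lists were chosen with earlier results of these data known. Gene positions come from GENCODE M21.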

Additional observations from a re-analysis of the deposited data

How the results depend on the processing

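The choice of control mattered most. Leaving out 1 library in turn, the count of members past the threshold ranged from 0 to 17 higher and from 0 to 6 lower, and that of all genes from 0 to 1609 higher and from 0 to 802 lower. The 0 counts came from leaving out a mutant, and the 17 from leaving out control 1. Over the same 4 settings the direction turned for the members that follow, whose log2 fold change ranged from -0.14 to 1.79 for Hmgcs1, -0.37 to 0.64 for Mvk, -0.029 to 0.53 for Pmvk, -1.54 to 1.03 for Mvd, -0.70 to 1.32 for Fdft1, -0.80 to 1.95 for Lss, -0.13 to 2.37 for Cyp51, -0.0061 to 2.53 for Tm7sf2, -0.78 to 2.05 for Msmo1, -0.53 to 1.51 for Nsdhl, -0.47 to 0.79 for Ebp, -1.03 to 1.35 for Sc5d, -0.28 to 1.44 for Dhcr7, -1.23 to 1.95 for Insig1, -0.18 to 0.14 for Insig2, -0.25 to 0.0038 for Scap, -0.52 to 0.24 for Srebf1, -0.14 to 1.62 for Srebf2 and -1.35 to 0.013 for Npc1. With no filter on low values 56 genes were higher and 18 lower, against 201 and 67 as reported. edgeR on whole reads called 66 higher and 27 lower, and DESeq2 598 higher and 493 lower. Members called with another setting were Mylip, as 1 member higher with a pseudocount of 5, a filter of 5 RPM, the replicate block or DESeq2, and Abcg1, as 1 member lower in DESeq2. Directions turned for Mvk under quantile normalization (-0.022), for Mvk (-0.0042), Fdft1 (-0.056), Lss (-0.026), Ebp (-0.025), Sc5d (-0.31) and Insig1 (-0.40) in edgeR, and for Mvk (-0.015), Fdft1 (-0.064), Lss (-0.030), Ebp (-0.035), Sc5d (-0.32) and Insig1 (-0.40) in DESeq2, with no call in any of them. The median over members was -0.0042 in edgeR and -0.015 in DESeq2. Of 352 values of 32 genes, members and those chosen from the other lists, under 11 alternatives that kept all libraries, 334 kept direction and side of the threshold. Quantile normalization moved the median of all genes by -0.11 on the log2 scale. With the replicate number as a block (replicate block) 301 genes were higher and 123 lower, and Mylip passed (limma adjusted p = 0.0359). Same-numbered libraries deviated together with a correlation of 0.16 across genes, over 2 pairs only, so they share a number and are not shown to be paired. The cause of these changes was not tested.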
